A study of Rattus norvegicus with 9 samples.

Results

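Integrins and the proteins that tie them to the actin cytoskeleton were represented by 7 genes. These were chosen by name, with earlier results of these data known, from the genes that the deposited transcript tables hold. The genes are the integrin subunits Itgb1, Itgb5 and Itga10, the adhesion kinase scaffold Ilk, the actin cross-linker Actn4, and the adaptors Pxn and Cass4. They are 7 of the 26249 genes and transcript units in the tables. Of the 7, 5 (Itgb1, Itga10, Ilk, Actn4 and Cass4) carry a name in the sources used here because the study's own list of differentially expressed genes names them, and 2 (Itgb5 and Pxn) because a list sorted by gene ID does. All 5 of the first kind, and none of the 2 others, passed the test between NPCs and MSCs, so their number is not independent evidence that adhesion genes changed.

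Stranded mRNA-seq was done on 3 groups of 3 libraries. The MSCs were untreated bone marrow mesenchymal stem cells of Sprague-Dawley rats aged 4 weeks, used at passage 3. The NPCs were the same kind of cells after induction for 3 days by EGF and bFGF at 20 ng/ml apiece. The third group received IGF-1 beside both factors over the same 3 days, at a dose that the sources used here do not give, and is called NPCs with IGF-1. By the study's methods, the MSCs of 3 rats served as biological replicates, and the NPCs were made from them. For induction the cells left attached culture for ultra-low attachment plates holding NeuroCult NS-A. Detached cells without growth factors were not analysed here, so growth factors, medium and loss of attachment cannot be told apart in any comparison with MSCs.

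Integrins are pairs of an alpha and a beta subunit that span the cell membrane and bind the extracellular matrix. At the sites where they cluster, called focal adhesions, adaptors such as integrin-linked kinase and paxillin join their tails to actin and to signalling enzymes. Mesenchymal cells spread on plastic rely on such sites, while cells grown as floating spheres hold on mainly to one another and to matrix they make themselves.

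Promoter sequences are shown first for the 2 genes that were lower in NPCs and have an entry (Itgb1 and Ilk) and for the 2 that were higher (Itga10 and Cass4), because each pair moved in the same direction. They come from RefSeq and run from 250 bases before to 50 bases after the start of the gene, 5′ to 3′ on the strand of the gene. Of the 7 genes, 6 were matched by symbol, and Actn4 was not. Capitals mark a GC box (GGGCGG or its reverse complement) or a TEAD motif (GGAATG or its reverse complement).
Itgb1, GRCr8 chr19:73602027-73602326, plus strand: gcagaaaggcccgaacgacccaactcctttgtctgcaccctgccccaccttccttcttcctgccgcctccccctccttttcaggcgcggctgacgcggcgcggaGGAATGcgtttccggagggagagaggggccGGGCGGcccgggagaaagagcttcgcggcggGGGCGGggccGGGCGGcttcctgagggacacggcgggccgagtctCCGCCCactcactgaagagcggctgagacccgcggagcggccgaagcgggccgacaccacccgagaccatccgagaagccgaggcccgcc
Ilk, GRCr8 chr1:169500471-169500770, plus strand: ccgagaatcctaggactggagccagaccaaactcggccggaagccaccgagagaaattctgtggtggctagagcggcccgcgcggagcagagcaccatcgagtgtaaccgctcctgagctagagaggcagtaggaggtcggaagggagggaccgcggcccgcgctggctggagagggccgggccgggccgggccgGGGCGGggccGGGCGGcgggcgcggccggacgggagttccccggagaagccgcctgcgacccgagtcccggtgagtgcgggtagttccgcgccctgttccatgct
Itga10, GRCr8 chr2:186871461-186871760, plus strand: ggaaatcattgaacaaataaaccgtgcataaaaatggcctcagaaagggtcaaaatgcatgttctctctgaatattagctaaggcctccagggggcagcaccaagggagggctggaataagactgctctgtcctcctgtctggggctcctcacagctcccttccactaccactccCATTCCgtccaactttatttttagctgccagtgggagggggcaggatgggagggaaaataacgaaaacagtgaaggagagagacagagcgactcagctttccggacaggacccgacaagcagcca
Cass4, GRCr8 chr3:181581652-181581951, plus strand: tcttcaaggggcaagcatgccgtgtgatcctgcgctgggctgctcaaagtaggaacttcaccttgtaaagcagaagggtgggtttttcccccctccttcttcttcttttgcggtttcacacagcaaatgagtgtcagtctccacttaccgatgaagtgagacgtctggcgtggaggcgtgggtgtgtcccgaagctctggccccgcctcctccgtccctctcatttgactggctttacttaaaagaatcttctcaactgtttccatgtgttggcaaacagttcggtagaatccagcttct

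The promoters of both lowered genes were rich in G and C. The Itgb1 promoter held 71.7% G or C and 35 CpG pairs, and the Ilk promoter 71.3% and 35 CpG pairs. The Itga10 promoter held 51.3% and 6 CpG pairs, and the Cass4 promoter 51.7% and 11 CpG pairs, close to the median of 52.3% over 27457 promoters of the same length. The promoters of Itgb5 and Pxn, neither of which passed the test, held 76.7% and 69.0%, so a high content was not particular to the genes that fell.

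Both strands were searched for 5 motifs, none of which contains another. The GC box, the binding letters of Sp1-type factors, was found 4 times in the Itgb1 promoter, the first at position -116 from the start, and 2 times in the Ilk promoter, the first at -55. It was found in none of the other 4 promoters. The 2 of 6 promoters with a GC box stand beside 34.9% of all promoters, a similar share. The TEAD motif, bound by factors that act with YAP and TAZ, was found once in Itgb1 at -146 and once in Itga10 at -75, against 13.9% of all promoters. No match was found in the 6 promoters for the CArG box of serum response factor (1.64% of all promoters), for the AP-1 motif TGANTCA (7.33%) or for TATAAA (14.3%). These matches describe letters only.

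Levels are given as FPKM, the fragments per kilobase of transcript relative to all mapped fragments, with the FPKM of all isoforms of a gene added. As FPKM are scaled by length, they allow levels of different genes to be set beside each other within a library. The widths of the deposited confidence intervals imply 39.8 to 52.4 M reads per library. Changes are log2 fold changes of (FPKM + 0.1) from limma, with the standard error (SE) and the Benjamini-Hochberg adjusted p over all genes tested. A gene was called where the adjusted p did not exceed 0.05 and the change was 1 or more in size. In bulk RNA a lower value may come from fewer cells that express a gene or from less of its RNA per cell, and these cannot be told apart.

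Of the cell markers, few carry a name here. For MSCs, 1 of 8 listed markers is named, and vimentin (Vim) ran from 2560 to 3015 FPKM in MSCs and from 629 to 879 FPKM in the induced libraries. For neural progenitors, 4 of 7 are named and their summed level was low throughout, at 0.942 to 1.35 FPKM in MSCs, 0.56 to 0.764 in NPCs and 0.711 to 0.993 in NPCs with IGF-1. That lower sum was set by Prom1, a surface protein of progenitor membranes, which fell from 0.655, 0.482 and 0.639 FPKM in MSCs to 0.0130, 0.0201 and 0.0277 FPKM in NPCs (log2 fold change -2.55, SE 0.27, adjusted p = 0.000503), and was at 0.0162, 0.0183 and 0.0062 FPKM in NPCs with IGF-1. Nestin (Nes) lay the other way without being called, at 0.0534 to 0.152 FPKM in MSCs and 0.268 to 0.331 FPKM in the induced libraries (log2 fold change 0.90 in NPCs, adjusted p = 0.0408). Fabp7 was at 0 in all 9 libraries, and Msi1 reached 0.719 FPKM with groups that overlapped. For leukocytes and macrophages, 3 of 11 are named, and their sum was 0.231 to 0.502 FPKM in MSCs, 9.54 to 11.4 FPKM in NPCs and 8.97 to 14.4 FPKM in NPCs with IGF-1, nearly all of it the lysosomal glycoprotein Cd68. The pan-leukocyte gene Ptprc did not pass 0.0142 FPKM and Aif1 did not pass 0.0403 FPKM in any library. For endothelial cells, 1 of 7 is named, and Vwf ran from 0.00796 to 0.0252 FPKM in MSCs and from 0.0983 to 0.52 FPKM in the induced libraries. For neurons, 2 of 7 are named, with Rbfox3 at 0 and Dcx at no more than 0.0434 FPKM in any library. Unannotated single-exon transcripts inside introns, which were left out of all levels, numbered 6636 to 11030 per MSC library and 29425 to 48369 per induced library. The MSC libraries did not overlap with the induced libraries in Vim, Prom1, Nes, Cd68, Vwf and the number of these transcripts, and the part of these in the comparisons with MSCs was not tested.

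The first comparison asked which genes differ between MSCs and the NPCs made from them. Among the 7 adhesion genes, Itgb1, Actn4 and Ilk fell in NPCs, by 2.23, 1.70 and 1.13 on the log2 scale, and Itga10 and Cass4 rose, by 4.61 and 2.72. Itgb5 and Pxn did not pass the test. The count of 5 called of 7 stands beside 21.6% of all 13696 genes tested, with 11.7% higher and 9.89% lower. The same 5 of 7 had groups that did not overlap, beside 49.8% of all genes tested. As these 5 are those named through the study's list of differentially expressed genes, nothing is read from either difference. Itga10 and Cass4 also entered the test through the libraries in which they are high. The median change over all genes tested was 0.03, and 0.095 without rescaling of the libraries. Rescaling by median-of-ratios holds this median near 0, so it cannot show that the scale is centred. Quantile normalisation raised the values of Itgb1 to -1.74, Actn4 to -1.26, Ilk to -0.70 and Itgb5 to 0.71. It lowered those of Pxn, Itga10 and Cass4. The sizes of the changes thus depend on the scaling.

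**Figure D1:**
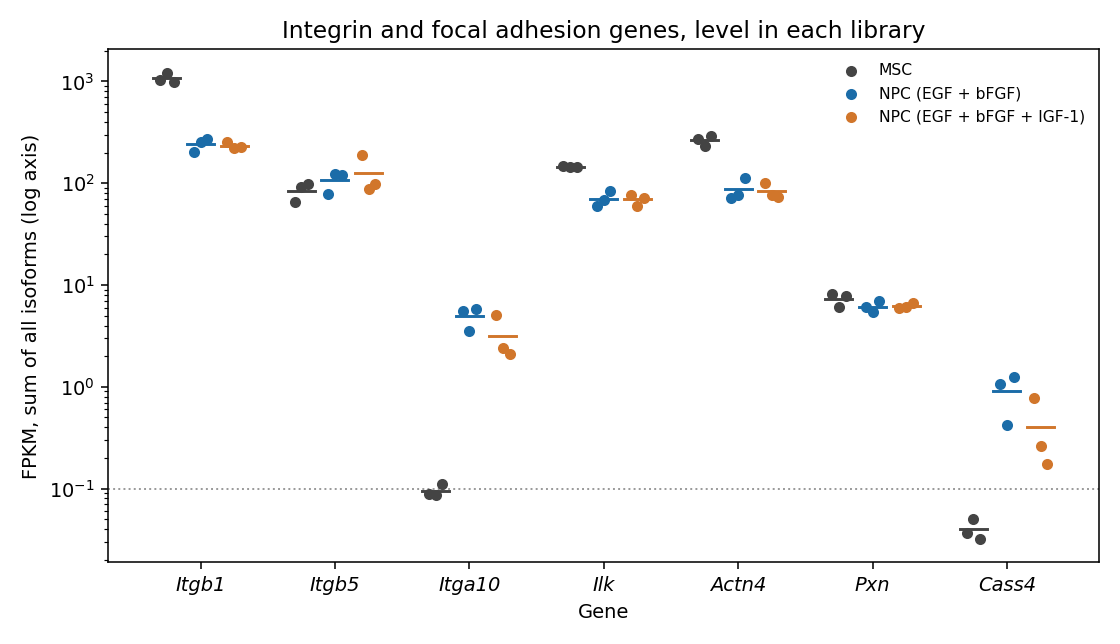
Level of each of the 7 genes in each of the 9 libraries, as FPKM on a log axis; points are libraries, short lines are group means, and the dotted line is the minimum of 0.1 FPKM. Itgb1, Ilk and Actn4 lie lower in all 6 induced libraries than in the 3 MSC libraries, and Itga10 and Cass4 lie higher, while Itgb5 and Pxn overlap.

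Among the receptors, Itgb1 encodes the beta1 subunit, the partner of most alpha subunits that bind collagen, laminin and fibronectin. The gene (ENSRNOG00000010966) lies on chromosome 19 at 72324612-72372323 on the plus strand in the build of the files, which the sources used here do not name, as for all coordinates of the transcript tables below. Its level was 1044, 1217 and 996 FPKM in MSCs, 203, 256 and 271 FPKM in NPCs, and 253, 223 and 228 FPKM in NPCs with IGF-1. Every induced library lay far below every MSC library, and the 2 induced groups overlapped. The mean was 1086 ± 116 FPKM in MSCs and 243 ± 35.4 FPKM in NPCs (SD, n = 3 each). Between these groups it fell by 2.23 on the log2 scale (SE 0.17, adjusted p = 0.000126). Itgb1 was the highest of the 7 genes in all 3 groups, before and after the fall. All FPKM of the gene sat on 1 annotated isoform in every library.

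Itga10 encodes the alpha10 subunit, which pairs with beta1 to bind collagen and is known chiefly from cartilage. The gene (ENSRNOG00000021217) lies on chromosome 2 at 218259871-218279187 on the plus strand. Its level was 0.0892, 0.0869 and 0.111 FPKM in MSCs, 5.54, 3.54 and 5.81 FPKM in NPCs, and 5.05, 2.39 and 2.11 FPKM in NPCs with IGF-1. All induced libraries lay above all MSC libraries, by an order of magnitude or more. In NPCs against MSCs it rose by 4.61 on the log2 scale (SE 0.29, adjusted p = 5.8e-05).

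Only 1 of 3 MSC libraries reached the minimum of 0.1 FPKM for Itga10, so the gene entered the test through the libraries in which it is high, and its presence among the tested genes is tied to its change. The implied number of reads was 19.6 to 26.1 per MSC library and 710 to 1419 per NPC library. The size of the change depends on the pseudocount, and was 2.39 with 1 FPKM and 5.46 with 0.01 FPKM added, with the gene called under both. Itga10 was the second lowest of the 7 genes in all 3 groups.

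Itgb5 encodes the beta5 subunit, the partner of alphaV in a receptor for vitronectin. The gene (ENSRNOG00000001795) lies on chromosome 11 at 73146148-73261215 on the minus strand. The summed level was 64.7, 91.1 and 97.8 FPKM in MSCs, 78.6, 124 and 120 FPKM in NPCs, and 189, 88.5 and 98.2 FPKM in NPCs with IGF-1. The groups overlapped. The log2 fold change of NPCs against MSCs was 0.27 with a 95% interval from -0.33 to 0.87 (SE 0.26, adjusted p = 0.439), which includes 0.

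The isoforms of Itgb5 were assembled differently from library to library. The annotated isoform, of 3679 bases, held all of the level in 5 of the 9 libraries. A shorter unannotated isoform without the 3′ part of the gene was assembled in the second NPC library (2371 bases), the first library with IGF-1 (1996 bases) and MSC libraries 2 and 3 (2000 and 2398 bases). In the first library with IGF-1 and the third MSC library the annotated isoform was then listed at 0.

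A short isoform raises the summed FPKM for the same number of fragments. When each isoform was weighted by its length, a choice made after the data were seen, the level of Itgb5 was 64.7, 58.3 and 63.8 FPKM in MSCs, 78.6, 89.4 and 120 FPKM in NPCs, and 102, 88.5 and 98.2 FPKM in NPCs with IGF-1. On that scale the induced libraries no longer overlapped with the MSC libraries, and the coefficient of variation of the group with IGF-1 was 7.42% in place of 44.2%. The log2 fold change of NPCs against MSCs was then 0.54 (adjusted p = 0.0625), and Itgb5 stayed uncalled. Over all 17 alternatives Itgb5 was not called in this comparison, but its log2 fold change ran from 0.046 without the first MSC library to 3.76 with annotated transcripts only, where the third MSC library is at 0, and its adjusted p from 0.0403 (quantile normalisation, 0.71) to 0.907.

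A second annotated gene, ENSRNOG00000046836, lies on the other strand with all of its 1758 bases inside exons of Itgb5. Its level followed that of Itgb5, from 73.2 to 158 FPKM, at 1.26 to 1.42 times the length-weighted level of Itgb5 in each of the 9 libraries. The strand setting used for alignment was not given in the sources used here, so the level of Itgb5 is uncertain where reads of the 2 genes could be mixed.

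**Figure D2:**
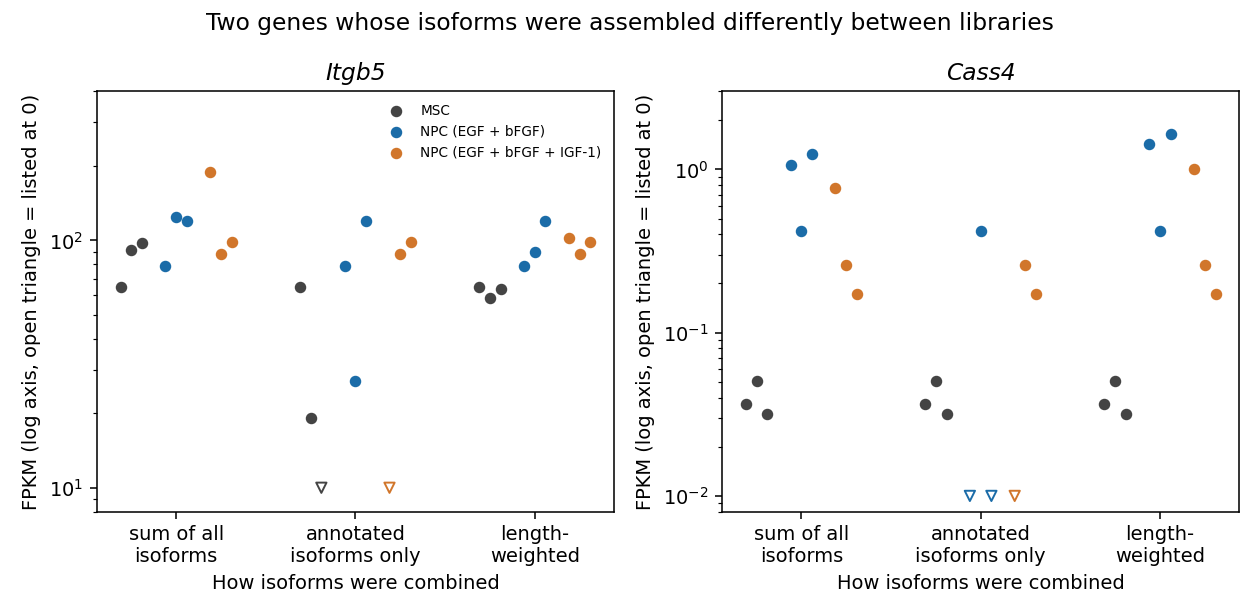
FPKM of Itgb5 and Cass4 in each library on a log axis, with isoforms added, restricted to annotated ones, or weighted by length; open triangles mark libraries where the annotated isoform is listed at 0. For Itgb5 the groups overlap when isoforms are added and separate when they are weighted by length, and for Cass4 they overlap only when unannotated isoforms are left out.

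Among the links from integrin to actin, Ilk encodes integrin-linked kinase, a pseudokinase that binds the tails of beta subunits and forms a complex with PINCH and parvin. The gene (ENSRNOG00000018993) lies on chromosome 1 at 177584793-177591044 on the plus strand. Its level was 148, 146 and 143 FPKM in MSCs, 59.2, 68.1 and 83.8 FPKM in NPCs, and 77.5, 59.9 and 72.2 FPKM in NPCs with IGF-1. The MSC libraries differed little among themselves, and all induced libraries lay below them. From MSCs to NPCs it fell by 1.13 on the log2 scale (SE 0.17, adjusted p = 0.00266), close to the threshold of 1. Quantile normalisation (-0.70) and annotated transcripts alone (-0.99) took the gene under that threshold, with the same direction. The fall of Ilk was smaller than that of Itgb1, and the ratio of Itgb1 to Ilk was 6.98 to 8.34 in MSCs and 3.23 to 3.76 in NPCs.

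Actn4 encodes alpha-actinin-4, which cross-links actin filaments and binds beta subunits. The gene (ENSRNOG00000020433) lies on chromosome 1 at 88258638-88327926 on the minus strand. Its level was 274, 231 and 292 FPKM in MSCs, 71.3, 76.7 and 113 FPKM in NPCs, and 101, 76.0 and 73.3 FPKM in NPCs with IGF-1. No induced library reached an MSC library. In NPCs it fell by 1.70 on the log2 scale (SE 0.24, adjusted p = 0.00172). In the third MSC library, 49.5 FPKM came from an unannotated isoform of 3619 bases that no other library had. Within libraries, the ratio of Actn4 to Ilk was 1.59 to 2.05 in MSCs and 1.13 to 1.35 in NPCs, and the 2 ranges did not overlap.

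Exons of Ilk and of Actn4 each overlap an annotated gene on the other strand. The partner of Ilk, ENSRNOG00000019178, shares 33 bases and was listed at 0 in 8 libraries and at 19.3 FPKM in the second library with IGF-1. The partner of Actn4, ENSRNOG00000020389, shares 329 bases and was listed at 0 in all 9.

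Among the adaptors, Pxn encodes paxillin, a scaffold that recruits focal adhesion kinase and other enzymes. The gene (ENSRNOG00000001149) lies on chromosome 12 at 48595400-48642173 on the minus strand. Its level was 8.14, 6.08 and 7.74 FPKM in MSCs, 6.06, 5.42 and 6.95 FPKM in NPCs, and 5.93, 6.06 and 6.65 FPKM in NPCs with IGF-1. The groups overlapped in both comparisons with MSCs. The log2 fold change of NPCs against MSCs was -0.31 with a 95% interval from -0.80 to 0.17 (SE 0.21, adjusted p = 0.278), which excludes a change of 1 in either direction on this scale. Unannotated isoforms were assembled in 5 libraries, and the leading annotated isoform held from 53.5% to 100% of the summed level, with a mean of 93.5% ± 11.3 in MSCs and 91.4% ± 7.48 in NPCs (SD, n = 3 each, two-sided exact permutation p = 1). The smallest p that 3 against 3 libraries allow is 0.1.

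Cass4 encodes a scaffold of the Cas family, which is phosphorylated at adhesions. The gene (ENSRNOG00000021560) lies on chromosome 3 at 176475073-176512469 on the plus strand. Its level was 0.0367, 0.0505 and 0.0319 FPKM in MSCs, 1.07, 0.422 and 1.25 FPKM in NPCs, and 0.768, 0.261 and 0.173 FPKM in NPCs with IGF-1. All induced libraries lay above all MSC libraries, but the highest was 2.97 times the lowest among NPCs and 4.43 times among NPCs with IGF-1. Against MSCs, the gene rose in NPCs by 2.72 on the log2 scale (SE 0.40, adjusted p = 0.0022).

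No MSC library reached 0.1 FPKM for Cass4, so the gene entered the test only through the induced libraries, and leaving out any 1 NPC library removed it from the test. The levels of MSCs imply 3.58 to 6.40 reads per library, and those of NPCs 40.6 to 193. With a pseudocount of 1 FPKM the log2 fold change was 0.84 and the gene was not called, while with 0.01 FPKM it was 4.04.

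In NPC libraries 1 and 3 and the first library with IGF-1, all of the Cass4 level came from an unannotated isoform of 3156 to 3227 bases that ran 650 to 704 bases past the annotated 3′ end, and the annotated isoform of 2421 bases was listed at 0. These are the 3 highest values of the gene. In the 3 other induced libraries only the annotated isoform was listed, at 0.422, 0.261 and 0.173 FPKM, still above the 0.0319 to 0.0505 FPKM of the MSC libraries. With annotated isoforms alone, the groups overlapped.

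The order of the 7 levels differed between the groups. In MSCs it was Itgb1, Actn4, Ilk, Itgb5, Pxn, Itga10 and Cass4, with no overlap between neighbours. In NPCs it was Itgb1, Itgb5, Actn4, Ilk, Pxn, Itga10 and Cass4, and Itgb5 with Actn4, Actn4 with Ilk, and Pxn with Itga10 overlapped. In NPCs with IGF-1 the order was that of NPCs, and Itgb5 with Actn4 and Actn4 with Ilk overlapped. The ratio of Itgb1 to Itgb5 was 10.2 to 16.2 in MSCs and 2.07 to 2.58 in NPCs, or 15.6 to 20.9 and 2.25 to 2.86 with isoforms weighted by length.

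The comparison of NPCs with IGF-1 against MSCs used the same 3 MSC libraries, so it does not repeat the first comparison independently. In a fit of all 9 libraries, the same 5 genes were called with the same directions, beside 21.4% of all 14228 genes tested, with 11.7% higher and 9.74% lower. Those 5 also had groups that did not overlap, beside 54.4% of all genes tested. Here too, nothing is read from these differences, for the reasons given for the first comparison. Itgb1 fell by 2.29 (SE 0.14, adjusted p = 6.08e-06), Actn4 by 1.76 (SE 0.22, adjusted p = 0.000348) and Ilk by 1.15 (SE 0.16, adjusted p = 0.000643). Quantile normalisation took Ilk under the threshold here too, at -0.76. Itga10 rose by 3.90 (SE 0.35, adjusted p = 4.70e-05). The values of Itgb5 (0.42, 95% interval -0.30 to 1.14, adjusted p = 0.328) and Pxn (-0.31, 95% interval -0.72 to 0.10, adjusted p = 0.211) did not pass. With isoforms weighted by length Itgb5 was at 0.54 (adjusted p = 0.0324), under the threshold of 1, and over all 17 alternatives it ran from 0.079 to 0.99 without a call.

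Cass4 was the weakest call in NPCs with IGF-1, where it rose by 1.62 on the log2 scale (SE 0.49, adjusted p = 0.0263). It was called under 9 of 16 alternatives, over which the adjusted p ran from 0.00807 to 0.617. Without the first library with IGF-1, the one with the unannotated isoform, the log2 fold change was 1.14 and the call was lost. Leaving out any 1 of the 3 MSC libraries also ended it, with log2 fold changes of 1.60 to 1.67.

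**Figure D3:**
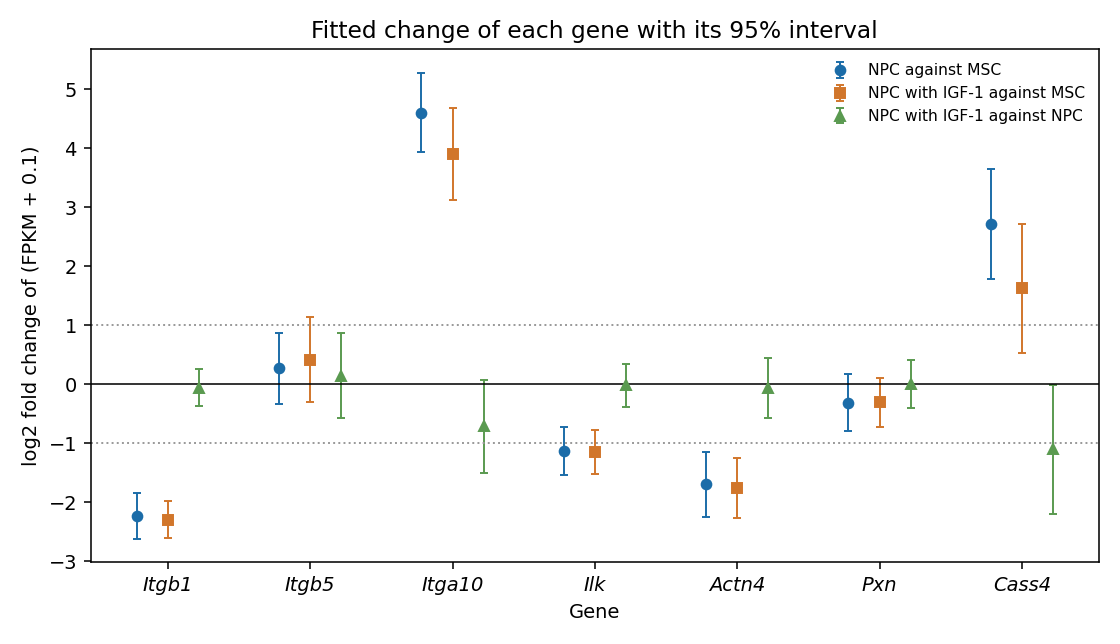
Log2 fold change of (FPKM + 0.1) of each gene in the 3 comparisons, with 95% intervals from limma as bars; dotted lines mark a change of 1 in size. Against MSCs, Itgb1, Ilk and Actn4 lie below -1 and Itga10 and Cass4 above 1 in both induced groups, which share the MSC libraries. Of the intervals for NPCs with IGF-1 against NPCs all but that of Cass4 include 0.

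The last comparison asked what IGF-1 added to EGF and bFGF. None of the 7 genes was called by limma, beside 0.0211% of all 14228 genes tested (3 genes), and 1 of the 7 and 661 of all genes had an unadjusted p under 0.05. That gene was Cass4, at 0.768, 0.261 and 0.173 FPKM against 1.07, 0.422 and 1.25 FPKM, with a log2 fold change of -1.10 (95% interval from limma -2.20 to -0.01, adjusted p = 1). The 2 groups overlapped. Leaving out unannotated isoforms turned its direction, to 0.30.

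For Itga10 the log2 fold change with IGF-1 was -0.71 (95% interval -1.50 to 0.07, adjusted p = 1). Libraries 2 and 3 with IGF-1 lay below all NPC libraries and the first lay among them. For Itgb1 the interval was -0.37 to 0.26, for Ilk -0.39 to 0.35, for Pxn -0.40 to 0.42 and for Actn4 -0.56 to 0.45, so a change of 1 was outside all of these. For Itgb5 it was -0.57 to 0.87.

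The wider adhesion machinery could be read only in part, because gene names were at hand for few genes. Of 128 genes in 8 lists (integrin alpha and beta subunits, leukocyte integrins, activators with the Ilk complex, actin linkers, the paxillin and Cas family, kinases and adaptors, and matrix ligands), 15 were named, the 7 among them, and 14 were tested. In NPCs against MSCs, 3 rose, 6 fell and 5 were not called, beside 11.7% higher and 9.89% lower of all genes tested, with a median log2 fold change of -0.02 beside 0.03 over all genes tested. Of the 14, the 9 named through the list of differentially expressed genes were all called, and the 5 named by gene ID order were not. The list of 25 kinases and adaptors, which holds focal adhesion kinase and Src, had no named gene. With IGF-1 against NPCs, none of the 14 was called, with a median of -0.14 beside 0.004 over all genes tested.

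Of the 8 other named adhesion genes, 1 rose, 3 fell, 3 were not called and 1 was not tested, beside the same 11.7% higher and 9.89% lower of all genes tested. As these genes, too, are named or not through the list of differentially expressed genes, nothing is read from that difference. Lama2, which encodes the alpha2 chain of laminin, was at 0.594, 0.645 and 0.316 FPKM in MSCs, 9.11, 8.63 and 7.83 FPKM in NPCs, and 7.21, 5.97 and 5.71 FPKM in NPCs with IGF-1, and it rose in NPCs by 3.79 on the log2 scale (SE 0.24, adjusted p = 6.4e-05). The other 2 laminin chains, Lama4 and Lamc1, were not called. Their log2 fold changes were 0.79 (adjusted p = 0.0225) and 0.96 (adjusted p = 0.00794). For both chains the values of NPCs and MSCs did not overlap, with those of NPCs higher. An absence of overlap in either direction was seen in 49.8% of all genes tested. Thbs2, the matrix protein thrombospondin-2, fell from 282, 279 and 289 FPKM in MSCs to 79.4, 92.1 and 161 FPKM in NPCs (log2 fold change -1.49, SE 0.28, adjusted p = 0.00571).

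Flnc, which encodes the actin cross-linker filamin C, fell from 80.1, 57.2 and 52.1 FPKM in MSCs to 14.0, 14.1 and 21.8 FPKM in NPCs (log2 fold change -1.99, SE 0.23, adjusted p = 0.000793). The leukocyte integrin subunit Itgax was at 2.17, 5.29 and 1.47 FPKM in MSCs and 0.491, 0.481 and 0.581 FPKM in NPCs (log2 fold change -2.18, SE 0.41, adjusted p = 0.00607). Its partner Itgb2 was low in all libraries, at 0.157, 0.147 and 0.138 FPKM in MSCs and 0.343, 0.399 and 0.333 FPKM in NPCs, and was not called (log2 fold change 0.84, adjusted p = 0.0296). The direction of Itgax was thus opposite to that of Cd68 above. Fermt1, which encodes the integrin activator kindlin-1, reached at most 0.0617 FPKM and was not tested.

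**Figure D4:**
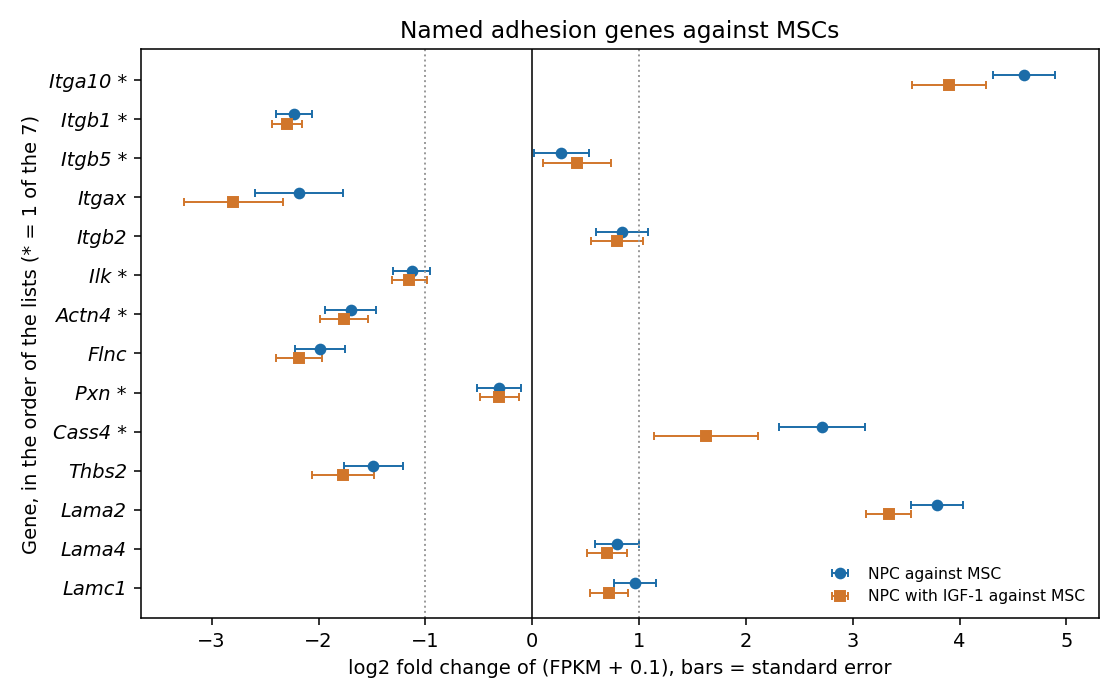
Log2 fold change of (FPKM + 0.1) of the 14 named and tested adhesion genes against MSCs, in NPCs and in NPCs with IGF-1, with standard errors as bars; dotted lines mark a change of 1 in size. Itga10, Cass4 and Lama2 lie above 1 and Itgb1, Itgax, Ilk, Actn4, Flnc and Thbs2 below -1 in both groups.

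The genes whose levels were most like those of the 7 across the 9 libraries were sought among about 1305 named genes with a mean of at least 1 FPKM, by Pearson's r of log2 values. The libraries fall into MSCs and induced cells, so r reads mainly that split and is given as a description. Acat2 was closest to Itgb1 (r = 0.998), Psmd2 and Eva1a to Ilk (0.995 and 0.993), and Adra1d and Cd3eap to Actn4 (0.995 for each). Sema3a and Fxyd2 were closest to Itga10 (0.994 and 0.992), and F13a1 and Etv4 to Cass4 (0.973 and 0.965). S100b and Slc25a45 were closest to Itgb5 (0.843 and 0.818), and Vars1 and Tmem160 to Pxn (0.969 and 0.927).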

How the data were processed

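Single-end mRNA-seq of 3 MSC, 3 NPC and 3 IGF-1 libraries was used, from 300 ng of total RNA each. The deposited tables list, for each library, the transcripts that the authors assembled with Cufflinks after TopHat and Bowtie2 (CASAVA 1.8 and bcl2fastq before them, and Cuffdiff, are also in the submitters' processing notes), with FPKM as deposited on a linear scale. The Cufflinks score column, as deposited by the authors, was not used. The study's own route (STAR, RSEM and DESeq2) gave other tables, which hold its fold changes and were not used except for gene names (3591 IDs named, 2452 of them in the files). Depth, 39.8 to 52.4 M reads, was read from the widths of the confidence intervals, and the intervals given here cover replicate error only.

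FPKM of annotated and unannotated isoforms were added per gene (20973 genes, and 5276 units of transcripts without a gene ID). Libraries were rescaled by median-of-ratios size factors (0.875 to 1.06). Genes reaching 0.1 FPKM in 3 or more libraries fitted, with an annotated transcript of 300 bases or longer, were tested on log2(FPKM + 0.1) with limma 3.58.1 (R 4.3.3, moderated statistics with a trend and the robust option). NPCs and MSCs were fitted in 6 libraries, the other comparisons in 9. Other steps used Python 3.11.15 (pandas 2.3.3, numpy 2.4.6, matplotlib 3.10.9, scipy 1.17.1). On simulated data for NPCs against MSCs (13709 genes), 94 of 100 genes changed by 3 and 67 of 100 changed by 1.5 (log2) were called, with 4 false calls. The changed genes were drawn from those above a minimum mean level, which Cass4 did not reach. All other genes were simulated without a change, unlike in the real data.

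The 7 genes and the lists were chosen with earlier results of these data known. Named beyond the 7 were, from each adhesion list, up to 3 called genes with the largest change and the 2 with the highest mean FPKM. From each marker list these were the sum and the 2 genes with the highest mean FPKM. For each of the 7, the 2 named genes with the most similar levels were added. Lamc1, Fermt1, Ptprc, Fabp7 and Prom1 were named after their values were seen. Labels do not say that a replicate number marks 1 rat in all groups, so p-values measure the spread between libraries. The alternatives tried were a pseudocount of 1 or 0.01, a minimum of 1 FPKM or no minimum, no rescaling, quantile normalisation, annotated transcripts only, a replicate block, eBayes without trend, fits of other sets of libraries, leaving out each library and, chosen after the data were seen, FPKM weighted by isoform length.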

Additional observations from a re-analysis of the deposited data

Results flagged for a closer look

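Transcripts that the report did not use lay inside introns of the 7 genes other than Cass4. Their summed number was higher in each induced library than in any MSC library. These were unannotated single-exon transcripts listed on the strand of the gene, and none was listed on the other strand. The strand setting used for alignment was not given in the sources used here, so their strand is given only as listed. Over the 7 genes there were 19, 15 and 20 in the NPC libraries, 11, 11 and 13 in the libraries with IGF-1, and 4, 0 and 0 in the MSC libraries. The reads implied by their confidence intervals were few, at 258 to 390 per NPC library, 177 to 233 per library with IGF-1 and 149, 0 and 0 in MSCs. Itgb1 held 7, 3 and 14 of them in NPCs and 4, 0 and 0 in MSCs, although its level was lower in NPCs. Pxn held 2, 6 and 3 in NPCs and Ilk 6, 2 and 2, and neither had any in MSCs. Itga10 held 1 in the first NPC library alone, and Actn4 held 3 in the second NPC library alone. Over all genes such transcripts numbered 48369, 44932 and 34406 in NPCs, 36178, 29425 and 33068 with IGF-1, and 6636, 11030 and 7085 in MSCs, so the difference was not particular to adhesion genes. Its cause was not tested. Groups of 3 libraries were not tested for outlying samples.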

How the results depend on the processing

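Over the alternatives, 325 of 350 recomputed changes of the 7 genes kept direction and side of the threshold, 11 lost their call, all of Ilk or Cass4, and 14 turned. Itgb1, Actn4 and Itga10 were called against MSCs under all 17 alternatives in both comparisons. In NPCs against MSCs, the number of the 7 called was 3 with annotated transcripts only, where Cass4 could not be tested, and 4 to 5 when a library was left out. Against MSCs it was 3 for NPCs with IGF-1 under quantile normalisation, without Ilk and Cass4, and 4 to 5 when a library was left out. For Cass4 in NPCs, no value could be had with a filter at 1 FPKM, with annotated transcripts only or without any 1 NPC library, since too few libraries reached the minimum.

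All genes called in NPCs against MSCs were 2957, and 1715 with a pseudocount of 1, 1191 with annotated transcripts only, and 2255 to 2860 without a library. In NPCs with IGF-1 against MSCs they were 3044, and 1758, 1499 and 2717 to 2992. In NPCs with IGF-1 against NPCs they were 3, and 5 with no filter, 19 with annotated transcripts only, 5 without the eBayes trend, and 1 to 10 without a library (10 without the first library with IGF-1, 1 without the third). Quantile normalisation moved the calls of NPCs against MSCs from 1602 higher and 1355 lower to 1269 and 1405. The cause of these shifts was not tested, beyond fewer genes tested or fewer libraries where this applies.

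The replicate block left the calls of the 7 genes as they were and gave 2861 calls in all for NPCs against MSCs, 3002 for NPCs with IGF-1 against MSCs and 1 for NPCs with IGF-1 against NPCs. In NPCs against MSCs the block lowered the SE of each of the 7 genes, as for Itgb5 from 0.26 to 0.13. By the study's methods NPCs and MSCs share rats, but the labels do not say which libraries do. Deviations of libraries with the same number correlated at 0.0079 to 0.10 in NPCs against MSCs. They correlated at -0.096 to -0.041 in NPCs with IGF-1 against MSCs and at -0.021 to 0.092 in NPCs with IGF-1 against NPCs. Not every library correlated best with its own number, so the numbers were not taken to pair libraries.

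Directions turned only in NPCs with IGF-1 against NPCs, where no gene was called. With annotated transcripts only, Itgb5 was at -2.77, Pxn at -0.28 and Cass4 at 0.30, and with length-weighted FPKM Pxn was at -0.042. Without a library, Itgb1 ran from -0.18 to 0.042 (above 0 without the third NPC library), Itgb5 from -0.19 to 0.36 (below 0 without the first NPC library or the first with IGF-1), Ilk from -0.13 to 0.13, Actn4 from -0.20 to 0.16, and Pxn from -0.10 to 0.12.

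Depth limits Cass4 and Itga10 in MSCs, where the levels imply at most 6.40 and 26.1 reads per library.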
